A study of Mus musculus with 12 samples.

Results

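The sensors of the unfolded protein response (UPR) were followed through plasmablasts (PBs) and plasma cells (PCs) of the mouse. Related transcription factors, proteases and a phosphatase subunit were followed with them. The 10 genes were *Ern1*, *Xbp1*, *Atf6*, *Atf6b*, *Mbtps1*, *Mbtps2*, *Eif2ak3*, *Atf4*, *Ppp1r15b* and *Nfe2l1*, chosen by name out of 24189 genes that all RNA-seq libraries list, and each of the 10 was present above 0 TPM, a transcript abundance normalised for gene length and library size, in every library. RNA-seq had been performed on 10 libraries in 5 groups with 2 libraries each, all from C57BL/6 mice. The study describes its PB and PC libraries as 2 independent experiments for each genotype, whereas the labels tie no library to an animal or a culture, so that p-values measure the spread between these libraries only. Of these groups, 3 were PBs obtained from splenic B cells on day 8 of an in vitro culture, in which irradiated 40LB fibroblasts supply CD40 ligand and BAFF and in which IL-4 is followed by IL-21, and the PBs were sorted by surface markers that included presence of CD138 and absence of CD23. Their genotypes were *Xbp1* fl/fl, the control with the floxed allele and no Cre, *Cd23*-Cre *Xbp1* fl/fl, in which a *Cd23*-Cre transgene deletes from the immature B cell stage onwards, and *Bhlha15* CreER/CreER, in which CreER was inserted into both alleles of *Bhlha15*, the gene for Mist1. The other 2 groups were TACI+CD138+ splenic PCs sorted on day 7 after immunization with NP-KLH, namely *Cd23*-Cre *Bhlha15* fl/fl PCs and control PCs that the labels call wildtype, whereas the study lists them as *Bhlha15* fl/fl with a biotin acceptor tag in the floxed allele. The genotypes are called control PBs, Xbp1-deficient PBs, Mist1-deficient PBs, wildtype PCs and Mist1-deficient PCs here. Mist1 binding had been mapped by Bio-ChIP-seq in 2 experiments with PBs after 4 days of LPS, taken from *Bhlha15* fl/fl mice that also carried the biotin ligase BirA in both *Rosa26* alleles.

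The UPR is run by 3 sensors in the membrane of the endoplasmic reticulum (ER). IRE1α, encoded by *Ern1*, is an RNase that excises a short intron from *Xbp1* mRNA, so that the frame for the active factor Xbp1s is made, and it also cleaves other mRNAs at the ER, a process called regulated IRE1-dependent decay (RIDD). ATF6α and ATF6β, encoded by *Atf6* and *Atf6b*, travel to the Golgi, where the site-1 and site-2 proteases, encoded by *Mbtps1* and *Mbtps2*, release their transcription factor domains. PERK, encoded by *Eif2ak3*, phosphorylates the translation factor eIF2α, which slows protein synthesis but favours translation of *Atf4* mRNA, and the phosphatase subunit CReP, encoded by *Ppp1r15b*, reverses the phosphorylation. NFE2L1 is an ER-anchored factor that is best known for the induction of proteasome genes. Antibody-secreting cells depend on the IRE1-Xbp1 arm for an expanded ER.

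The sequences on which the arms act are few and short. In the annotated unspliced *Xbp1* transcript of 2129 bases (NCBIM37 annotation, the build called mm9), 2 copies of the loop motif CNGCAGC frame the intron of 26 bases, which occupies bases 815 to 840 and lies inside the coding sequence of bases 337 to 1140. It is printed here with its surroundings, 5′ to 3′, because it is the stretch that IRE1α excises, and the capitals mark the intron. Splicing was not measured, since all values of the IRE1 arm given here are per gene.
Xbp1 intron: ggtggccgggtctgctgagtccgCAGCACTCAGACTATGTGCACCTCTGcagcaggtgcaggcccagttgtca
Promoters were taken as the 250 bases before to 50 bases after the start site of the transcript with the longest coding sequence, and both strands were searched. The ER stress element (ERSE), CCAAT and CCACG with 9 bases between them, bound by ATF6 and Xbp1s, was found in the promoter of *Xbp1* and in no other of the 10, against 0.112% of 22359 promoters of protein-coding genes. The UPR element TGACGTGG was present in *Nfe2l1* alone (0.756% of promoters), and the letters TGATGNAA of the C/EBP-ATF response element (CARE), to which ATF4 binds, in *Ppp1r15b* alone (3.53%). ERSE-II (ATTGG and CCACG with 1 base between them, 0.0581%) matched none of the 10. The 3 matches are shown in 30 bases each, with the element in capitals, in the orientation of the gene, because each is an element for a factor of the same group.
Xbp1, ERSE, chr11:5420904-5420933, plus strand: accggCCAATCGCGGACGGCCACGacccta
Nfe2l1, UPRE read on the opposite strand, chr11:96691422-96691451, minus strand: tggacttctctCCACGTCAgtctcgggagg
Ppp1r15b, CARE, chr1:135027672-135027701, plus strand: ctaggtccggcTGATGCAActcgccgcgtg
Counted from the start site, the elements began at -61 in *Xbp1*, -158 in *Nfe2l1* and -37 in *Ppp1r15b*. The 3 genes occupy chr11:5420662-5425896, chr11:96678728-96691282 and chr1:135027720-135036377, respectively (mm9). The start site used for *Xbp1* lies inside the annotated gene, since other transcripts begin upstream. A match is a description of letters, not of binding.

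*Bhlha15* was measured first, since it was targeted in 2 of the genotypes. It stood at 176 and 159 TPM in control PBs, 0.21 and 0.551 TPM in Mist1-deficient PBs, 258 and 242 TPM in wildtype PCs and 14.4 and 16.6 TPM in Mist1-deficient PCs. In Xbp1-deficient PBs it was listed at 3.57 and 2.60 TPM, so that the PBs without Xbp1 had also lost most of the mRNA for Mist1. Plasma cell markers were present in every group, with 7 of 7 above 0, but their summed TPM was 38598 to 38718 in control PBs and 19005 to 19679 in Xbp1-deficient PBs, where 3 of the 7 were lower and none was higher, with *Mzb1*, an ER chaperone of antibody-secreting cells, at -2.28 on the log2 scale. Summed TPM of 8 neutrophil markers were 10.3 to 11.6 in control PBs and 133 to 134 in Xbp1-deficient PBs. They were higher in the PCs, at 461 to 988 in wildtype and 560 to 845 in Mist1-deficient PCs. In contrast, 7 fibroblast markers, the cell type of the feeder layer, summed to 8.30 to 11.04 TPM in the PCs and to far more in the PBs. Their sums were 1026 to 1228 TPM in control PBs, 1425 to 1553 TPM in Xbp1-deficient PBs and 795 to 1369 TPM in Mist1-deficient PBs. The part of these cells in the results was not tested. In bulk RNA, fewer cells of a type and less RNA per cell cannot be told apart.

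The 10 genes were among the well-expressed genes of all groups. In control PBs the order by mean TPM was *Xbp1* (3105), *Atf4* (538), *Atf6b* (230), *Nfe2l1* (194), *Atf6* (174), *Ppp1r15b* (108), *Eif2ak3* (76.4), *Mbtps1* (71.5), *Ern1* (51.4) and *Mbtps2* (18.7), and no neighbours in this order overlapped between libraries. TPM are per length, so that these levels can be compared between genes. *Xbp1* led and *Atf4* came second in all 5 groups, and *Mbtps2* was last in all 5. In between, *Ern1* moved from rank 9 in control PBs to rank 4 in Xbp1-deficient PBs, whereas *Atf6b* fell from rank 3 to rank 8. In wildtype PCs *Ppp1r15b* and *Ern1* overlapped, as did *Nfe2l1* and *Atf6* in Mist1-deficient PBs and *Eif2ak3* and *Mbtps1* in Mist1-deficient PBs and PCs, while all other neighbours were apart. Across the 10 libraries *Atf6* varied least, 1.54-fold from lowest to highest, and *Atf6b* most, 6.75-fold. The paralog *Ern2* was at 0 TPM in 9 of the 10 libraries and at 0.0404 TPM in the other, so that *Ern1* supplied nearly all IRE1 mRNA. Of the other eIF2α kinases, *Eif2ak1* (HRI) was at 109 and 103 TPM in control PBs, above *Eif2ak3*, whereas *Eif2ak2* (PKR) was at 29.0 and 29.6 TPM.

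**Figure D1:**
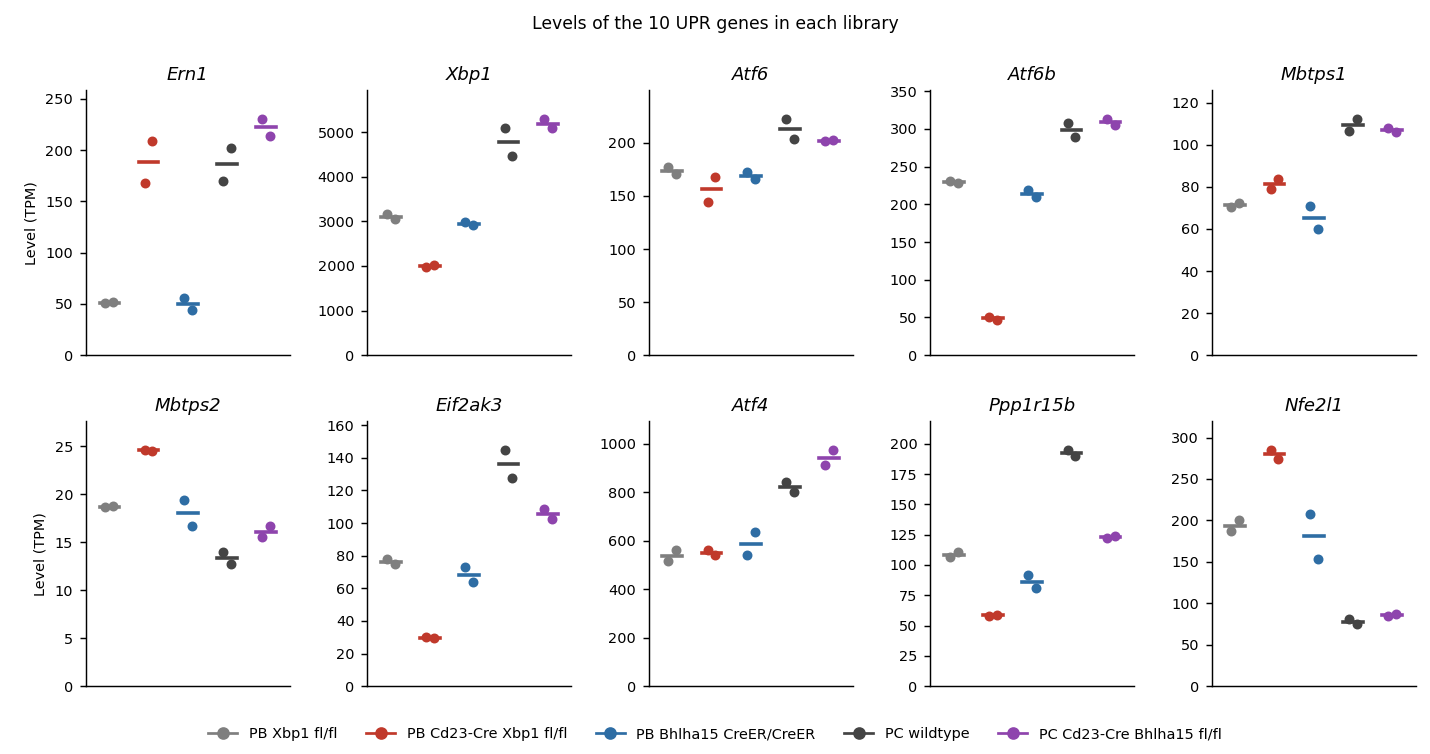
Levels of the 10 UPR genes in TPM as deposited, one panel for each gene with its own axis from 0. Each point is a library and each bar the mean of the 2 libraries of a group. *Ern1* was high in Xbp1-deficient PBs and in both PC groups, while *Atf6b* was low in Xbp1-deficient PBs alone, at 51.2 and 46.4 TPM.

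To see how the 3 arms respond to the loss of Xbp1, Xbp1-deficient PBs were compared with control PBs. A gene is said to have changed at an adjusted p under 0.05 from limma over all genes tested, and fold changes are on the scale of log2(scaled TPM + 0.1). Of the 10 genes, 5 fell (*Xbp1*, *Atf6*, *Atf6b*, *Eif2ak3* and *Ppp1r15b*), against 18.0% of all genes tested, and 2 rose (*Ern1* and *Nfe2l1*), against 10.3%. The arms thus moved apart in sensor mRNA, with *Ern1* higher by 3.15-fold, *Atf6b* lower by 5.43-fold and *Eif2ak3* lower by 2.97-fold. Beyond 3-fold with more than 5 TPM in the higher group there were 2 of the 10, *Ern1* and *Atf6b*, against 1.87% of all genes. The median log2 fold change of the 10 was -0.27, against 0.00 for all genes.

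In the IRE1 arm, the sensor rose and its substrate fell. *Ern1* was at 50.5 and 52.2 TPM in control PBs and at 168 and 209 TPM in Xbp1-deficient PBs, which gave 1.66 ± 0.11 on the log2 scale (SE, adjusted p = 1.87e-05). The groups lay far apart, although the 2 mutant libraries differed more from each other than the 2 controls did. *Xbp1* itself was at 3168 and 3043 TPM in the controls and at 1981 and 2024 TPM in the mutant, so that its mRNA fell by 0.84 ± 0.12 on the log2 scale (adjusted p = 0.00144). This value counts all reads of the gene, without distinguishing spliced from unspliced mRNA or mRNA of the recombined allele, and it checks the deletion only in part. Of 11 well-known targets of Xbp1s, 10 fell and none rose, with a median of -2.30. The steepest were *Sec24d* (COPII coat, -3.86), *Dnajb9* (an ER co-chaperone that restrains IRE1α, -3.58) and *Dnajc3* (an ER co-chaperone that inhibits PERK, -3.40), and *Wfs1* (-0.20) was the one that did not pass. *Dnajb9* went from 308 and 304 TPM to 26.7 and 32.7 TPM. Of 7 RIDD substrates tested, 4 fell and none rose, with a median of -1.31. They were *Tapbp* (peptide loading of MHC class I, -2.16), *Ergic3* (ER to Golgi transport, -1.78), *Hgsnat* (a lysosomal acetyltransferase, -1.73) and *Bloc1s1* (the classical RIDD substrate, -1.31). *Col6a1*, *Sparc* and *Pmp22*, which gave 0.15, 0.35 and 0.40 and did not pass, are genes that fibroblasts express, and they were at 0 to 1.36 TPM in PCs. Among 11 adaptors, ligase subunits and regulators of the IRE1 arm, 5 fell, led by *Dnajb9*, *Syvn1* (-1.43) and *Sel1l* (-0.78), the last 2 forming an ER ubiquitin ligase that degrades IRE1α. *Rtcb*, the ligase that joins the *Xbp1* exons, rose by 0.30.

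In the ATF6 arm, most of the change was in 1 paralog. *Atf6b* fell from 231 and 228 TPM to 51.2 and 46.4 TPM, which gave -2.44 ± 0.08 on the log2 scale (adjusted p = 6.51e-07). *Atf6* was at 177 and 171 TPM in the controls and at 144 and 168 TPM in the mutant. The groups of *Atf6* did not overlap, but the gap was small beside the spread of the mutant libraries, and its fold change of -0.37 ± 0.09 (adjusted p = 0.0199) no longer passed with TPM as deposited (-0.16), with quantile normalization (-0.23) or without Xbp1-deficient replicate 1 (-0.27) or control PB replicate 1 (-0.30). The proteases did not pass. *Mbtps1* gave -0.02 with a 95% interval from -0.19 to 0.15, and its sign turned to 0.18 with TPM as deposited. *Mbtps2* rose from 18.6 and 18.7 TPM to 24.6 and 24.5 TPM as deposited, but gave 0.19 after scaling (95% interval -0.01 to 0.39, adjusted p = 0.149), 0.39 as deposited and 0.26 after quantile normalization, the last 2 of which passed. Of 11 well-known ATF6 targets, 9 fell and none rose, with a median of -0.88. *Hyou1*, an ER chaperone of the Hsp110 kind, fell by 3.36 on the log2 scale, *Creld2* by 2.12 and *Sdf2l1* by 2.04. The ER chaperones *Hspa5* (BiP, 0.10) and *Hsp90b1* (GRP94, 0.25), which with *Calr* were the 3 most abundant of the list, did not pass. As deposited, *Hspa5* was at 7262 and 7136 TPM in the controls and at 8616 and 9223 TPM in the mutant. *Hsp90b1* was at 15657 and 15277 TPM in the controls and at 21101 and 21269 TPM in the mutant. With TPM as deposited or after quantile normalization, 2 of the 11 passed as higher and 8 as lower. The study states that Xbp1 regulates many UPR genes, and the part of ATF6 in these falls was not tested. Of 8 other substrates of the site-1 and site-2 proteases and their regulators, 6 fell, with *Insig1* (ER retention of SREBP, -2.82), *Srebf2* (cholesterol synthesis, -1.52) and *Creb3l2* (-1.46) ahead.

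In the PERK arm, the kinase and the constitutive phosphatase subunit fell while targets of ATF4 rose. *Eif2ak3* went from 77.7 and 75.0 TPM to 29.98 and 29.4 TPM, which gave -1.57 ± 0.08 on the log2 scale (adjusted p = 3.91e-06). *Ppp1r15b* went from 107 and 110 TPM to 58.0 and 58.9 TPM, which gave -1.10 ± 0.07 (adjusted p = 1.01e-05). For both genes the 2 libraries of each group lay close together and far from those of the other group. *Atf4* mRNA was at 515 and 561 TPM in the controls and at 562 and 540 TPM in the mutant, with overlapping groups and a fold change of -0.17 (95% interval -0.45 to 0.11, adjusted p = 0.338), which was 0.04 with TPM as deposited. The protein, which is under translational control, was not measured. Of 20 well-known ATF4 targets tested, 18 rose and none fell, with a median of 0.71. *Atf5* (a bZIP factor) rose by 2.23, from 99.6 and 100 TPM to 546 and 537 TPM, *Trib3* (a pseudokinase that inhibits ATF4) by 1.97 and *Ddit3* (the factor CHOP) by 1.59. The 2 that did not pass were *Atf3* (-0.01) and *Ppp1r15a* (-0.13), the latter encoding GADD34, the inducible counterpart of CReP. Among 10 other eIF2α kinases, phosphatase subunits and PERK regulators, 3 fell, namely *Dnajc3*, *Nck1* (-0.50) and *Eif2ak1* (-0.27), the last of which did not pass with TPM as deposited (-0.06) or without any 1 of the 4 libraries. *Nck1* passed in 10 of 15 alternatives, but not with TPM as deposited (-0.29), without control PB replicate 1 (adjusted p = 0.0642) or 2 (adjusted p = 0.0833) or without Xbp1-deficient PB replicate 1 (adjusted p = 0.0528). With TPM as deposited, 1 gene of this list was lower and 3 were higher. The remaining kinases gave 0.08 for *Eif2ak2* (PKR) and -0.23 for *Eif2ak4* (GCN2) and did not pass.

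*Nfe2l1* rose from 187 and 201 TPM to 285 and 275 TPM, which gave 0.32 ± 0.10 on the log2 scale (adjusted p = 0.042). The groups did not overlap, but the call was lost when any 1 of the 4 libraries compared was left out (adjusted p = 0.109 to 0.19). Its relative *Nfe2l2* gave 0.26 and did not pass. Summed fibroblast markers were also higher as deposited, at 1425 to 1553 TPM against 1026 to 1228 TPM in the controls. After scaling, 1 of the 6 fibroblast markers tested was lower and none was higher, with a median of 0.05. The part of feeder cells in the rise of *Nfe2l1* was not tested. Of 10 processing factors and partners of NFE2L1, 6 fell, led by *Syvn1*, *Sel1l* and *Vcp* (the ATPase that extracts proteins from the ER, -0.75), and none rose. *Syvn1* and *Sel1l* were also counted in the IRE1 list, so that these falls are not separate from those given above. Of 31 constitutive proteasome subunits, 6 fell and 4 rose, with a median of -0.13, and the values ran between -0.45 for *Psma5* and 0.47 for *Psmb3*, *Psmb2* being at -0.44. The calls for *Psma5*, *Psmb2* and *Psmb3* were each lost without control PB replicate 2 (adjusted p = 0.0639, 0.0574 and 0.0673). With TPM as deposited 3 of the 31 fell and 12 rose, so that no direction holds for the list.

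**Figure D2:**
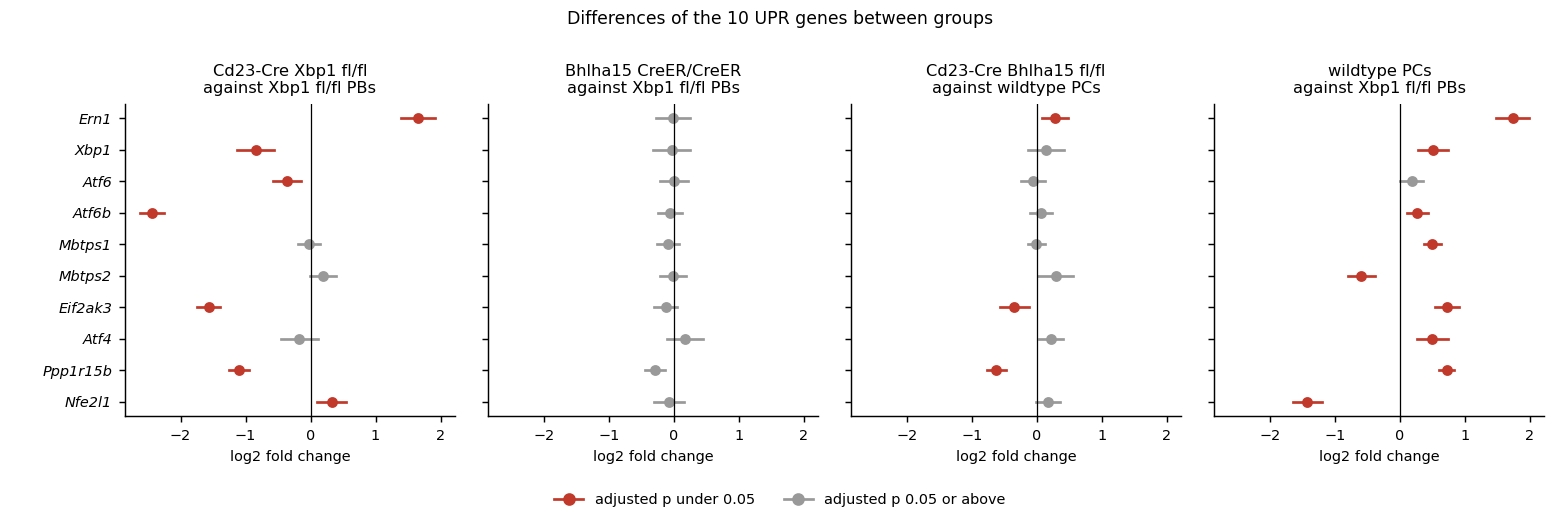
Differences of the 10 UPR genes in 4 comparisons, as log2 fold change with its 95% interval from limma, where red marks an adjusted p under 0.05. The point for *Atf6b* lies at -2.44 in Xbp1-deficient PBs, *Ern1* is at 1.66 there and at 1.74 in wildtype PCs, and all intervals in Mist1-deficient PBs except that of *Ppp1r15b* include 0.

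The comparison was read with the limits of its scaling. Without scaling, the median of all genes moved by 0.21 on the log2 scale in the Xbp1-deficient PBs, and the share of lower genes among all that changed went from 63.6% to 28.4%, or to 43.9% with quantile normalization, and all 6 neutrophil markers tested rose alongside (median 3.71). *Ern1*, *Xbp1*, *Atf6b*, *Eif2ak3* and *Ppp1r15b* passed in the same direction in all 15 alternatives, with *Ern1* between 1.499 and 1.86 and *Atf6b* between -2.52 and -2.23. With TPM as deposited, 2 RIDD substrates, 3 regulators of the IRE1 arm, 3 of the eIF2α list and 3 partners of NFE2L1 passed as higher.

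Loss of Mist1 with *Xbp1* not targeted was examined at the PB stage by setting Mist1-deficient PBs against control PBs. These groups do not differ in Mist1 alone. The mutant carries CreER in both *Bhlha15* alleles, and the control carries floxed *Xbp1*, which the label of the mutant does not name. These differences cannot be told apart. None of the 10 genes changed by limma, against 0.322% of all genes tested, and at an unadjusted p under 0.05 there was 1 of the 10, against 10.4% of all genes. That gene was *Ppp1r15b*, with 91.4 and 81.0 TPM against 107 and 110 TPM in the controls, a log2 fold change of -0.29 (95% interval -0.44 to -0.14, adjusted p = 0.178). The groups did not overlap. This comparison shares its control PB libraries with the previous one. The sensors gave -0.01 (95% interval -0.27 to 0.25) for *Ern1*, 0.00 (-0.21 to 0.21) for *Atf6*, -0.06 (-0.25 to 0.13) for *Atf6b* and -0.12 (-0.30 to 0.06) for *Eif2ak3*, so that changes of 1.5-fold in these genes lay outside the intervals. *Xbp1* was at 2978 and 2917 TPM, slightly under the controls, with a fold change of -0.03. No gene of the 9 lists of partners and targets changed in this comparison. The 2 libraries differed in *Ppp1r15a* (61.5 and 126 TPM) and *Nfe2l1* (207 and 154 TPM) more than those of any other PB group.

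The 2 mutant genotypes, both short of *Bhlha15* mRNA, were then compared directly. By their labels they also differ in the *Cd23*-Cre transgene, the floxed *Xbp1* alleles and CreER in both *Bhlha15* alleles. These differences cannot be told apart from the loss of Xbp1. In Xbp1-deficient PBs, 5 of the 10 genes were lower than in Mist1-deficient PBs (17.8% of all genes) and 2 were higher (9.34%). *Atf6b* differed by -2.38 ± 0.08 (adjusted p = 6.96e-07), *Eif2ak3* by -1.45 ± 0.08 (adjusted p = 5.48e-06), *Xbp1* by -0.81 ± 0.12 (adjusted p = 0.00181), *Ppp1r15b* by -0.81 ± 0.07 (adjusted p = 5.61e-05) and *Atf6* by -0.37 ± 0.09 (adjusted p = 0.0205), although the libraries of *Atf6* overlapped in TPM and its call was lost with TPM as deposited (-0.12), with quantile normalization (-0.17) and without Xbp1-deficient replicate 1 (-0.27) or Mist1-deficient PB replicate 2 (-0.32). *Ern1* was higher by 1.66 ± 0.11 (adjusted p = 1.92e-05) and *Nfe2l1* by 0.40 ± 0.10 (adjusted p = 0.0192), the latter not without either mutant *Xbp1* library. *Atf4* gave -0.34 (95% interval -0.62 to -0.06, adjusted p = 0.0718) and passed at -0.53 without Mist1-deficient PB replicate 1. Downstream, 10 of 11 Xbp1s targets, 8 of 11 ATF6 targets and 4 of 7 RIDD substrates were lower, none of these lists had a higher gene (2 ATF6 targets and 2 RIDD substrates with TPM as deposited), and 18 of 20 ATF4 targets were higher. From each list, the 2 changed genes with the greatest difference were, on the lower side, *Sec24d* (-3.86), *Dnajb9* (-3.75), *Hyou1* (-3.40), *Dnajc3* (-3.34), *Insig1* (-2.63), *Tapbp* (-2.37), *Creld2* (-2.28), *Ergic3* (-1.91), *Srebf2* (-1.35), *Syvn1* (-1.32), *Vcp* (-0.88) and *Eif2ak1* (-0.41), and on the higher side *Atf5* (2.08) and *Trib3* (1.91). Of the 31 proteasome subunits 14 were lower, led by *Psmd1* (-0.55) and *Psmc1* (-0.51), and 2 higher, but with TPM as deposited 6 were lower and 9 higher. This comparison shares its Xbp1-deficient libraries with the first one and its Mist1-deficient libraries with the second. Scaling weighed more here than in any other comparison, since the share of lower genes among all changed went from 65.6% to 24.1% with TPM as deposited, where the median of all genes stood at 0.26.

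In PCs without Mist1, the gene that changed most of the 10 was *Ppp1r15b* of the PERK arm. Of the 10 genes, 2 fell in Mist1-deficient PCs (*Ppp1r15b* and *Eif2ak3*), against 16.2% of all genes tested, and 1 rose (*Ern1*), against 13.3%, so that the share of the 10 was close to that of all genes, and none passed 3-fold (0.848% of all genes). *Ppp1r15b* was at 195 and 190 TPM in wildtype PCs and at 122 and 124 TPM in the mutant, which gave -0.63 ± 0.06 on the log2 scale (adjusted p = 0.00227), which passed in all 12 alternatives. The groups were well separated. *Eif2ak3* was at 145 and 128 TPM in wildtype PCs and at 108 and 103 TPM in the mutant, without overlap, and gave -0.35 ± 0.09 (adjusted p = 0.0368), but not without either mutant library (adjusted p = 0.115 and 0.197). *Ern1* was at 170 and 202 TPM in wildtype PCs and at 230 and 214 TPM in the mutant, which gave 0.28 ± 0.08 (adjusted p = 0.0482). This last call was lost with TPM as deposited (0.26), with quantile normalization (0.27) and without wildtype replicate 1 (0.19) or either mutant library (0.23 and 0.33). *Xbp1* mRNA was at 5099 and 4458 TPM in wildtype and 5296 and 5086 TPM in mutant PCs, with overlapping libraries and a fold change of 0.14 (95% interval -0.14 to 0.42), whose sign turned to -0.03 after quantile normalization. *Atf4* gave 0.22 (95% interval 0.03 to 0.40, adjusted p = 0.079), *Mbtps2* 0.29 (0.02 to 0.55), *Nfe2l1* 0.16 (-0.02 to 0.35), *Atf6b* 0.07 (-0.10 to 0.24), *Mbtps1* -0.01 (-0.14 to 0.12) and *Atf6* -0.06 (-0.24 to 0.13). Without wildtype replicate 1, *Xbp1*, *Atf4*, *Mbtps2* and *Nfe2l1* passed as higher, at 0.27, 0.29, 0.38 and 0.25.

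Downstream of the sensors, the list counts in these PCs stand beside 16.2% of all genes tested that fell and 13.3% that rose. The medians of the Xbp1s targets (0.01), the ATF6 targets (0.04) and the proteasome subunits (0.04) were near that of all genes (0.01), so that no movement is read for these 3 lists. Of 19 ATF4 targets tested, 7 fell and 1 rose (*Ppp1r15a*, 0.34), with a median of -0.33 against 0.01 for all genes. *Gpt2*, an alanine aminotransferase, fell by 1.76, from 19.6 and 15.96 TPM to 4.45 and 5.81 TPM, and *Ddit4*, an inhibitor of mTORC1, by 1.36, from 100 and 89.4 TPM to 38.9 and 33.7 TPM. *Atf5*, *Trib3* and *Ddit3*, which led the rise in the PBs without Xbp1, gave -0.34, -0.77 and 0.22 here and did not pass. Of 11 Xbp1s targets 1 fell (*Sec61b*, -0.37) and 2 rose, among them *Wfs1* (0.36), and of 11 ATF6 targets 2 fell, *Derl3* (-0.56) and *Herpud1* (-0.44), both of ER-associated degradation. Of 5 RIDD substrates tested 3 rose, including *Hgsnat* (0.67) and *Tapbp* (0.55). Of 7 clients of the site-1 and site-2 proteases and their regulators, 5 fell and 1 rose, with *Creb3l1* at -1.87. *Scap*, the escort of SREBP, was at -0.995, from 96.2 and 81.4 TPM to 43.7 and 43.9 TPM. In the lists of partners, *Nck1* fell by 0.38 and *Syvn1* by 0.28, whereas *Eif2ak2* rose by 0.45, *Mafg* by 0.58, *Nfe2l2* by 0.34 and *2700060E02Rik*, a subunit of the tRNA ligase complex, by 0.31. Of the proteasome subunits 1 fell (*Psma5*, -0.40) and 4 rose, with *Psmd14* at 0.29, against 4 and 3 with TPM as deposited. *Gpt2*, *Ddit4*, *Creb3l1*, *Scap*, *Hgsnat* and *Tapbp* passed without any 1 of the 4 libraries, whereas the calls for *Syvn1*, *Nck1*, *Sec61b*, *Wfs1*, *Derl3*, *Herpud1*, *Eif2ak2*, *Mafg*, *Nfe2l2*, *Psmd14* and *2700060E02Rik* were lost without either mutant library (adjusted p = 0.0516 to 0.205) and that for *Psma5* without mutant replicate 2 (adjusted p = 0.127). The summed TPM of 6 T cell markers was 69.9 to 70.7 in wildtype and 77.7 to 100.4 in mutant PCs. For 8 neutrophil markers it was 461 to 988 in wildtype and 560 to 845 in mutant PCs. For 6 macrophage markers it was 223 to 225 in wildtype and 197 to 233 in mutant PCs. Sums of 6 B cell markers were 1690 to 1985 TPM in wildtype and 1390 to 1512 TPM in mutant PCs, without overlap. Those of 5 erythroid markers were 13.4 to 14.7 TPM in wildtype and 6.45 to 10.8 TPM in mutant PCs, also without overlap. The part of these cells in the differences was not tested.

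**Figure D3:**
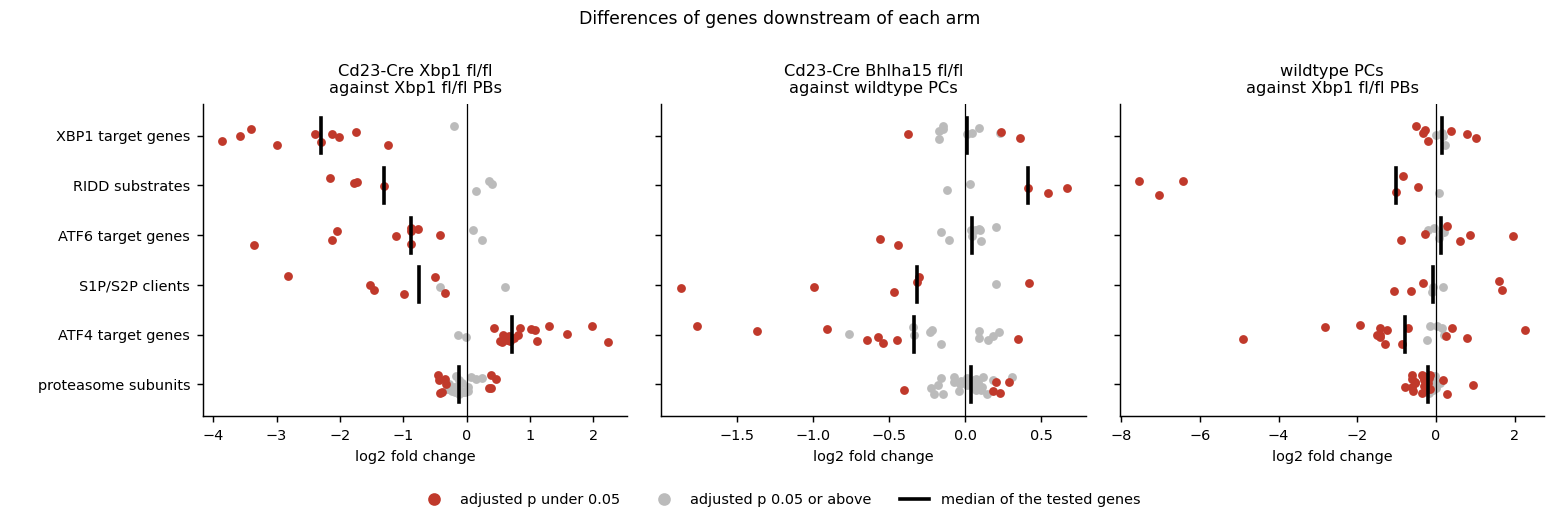
Log2 fold changes of the genes downstream of each arm in 3 comparisons, where each point is a gene, red marks an adjusted p under 0.05 and the bar is the median of the tested genes of a list. The axes differ between panels. The ATF4 targets lie to the right in Xbp1-deficient PBs (median 0.71) and to the left in Mist1-deficient PCs (median -0.33), and the Xbp1s targets lie far to the left in the former alone (median -2.30).

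Between the stages, wildtype PCs were compared with control PBs. Here 7 of the 10 genes were higher in PCs (37.6% of all genes tested) and 2 were lower (38.4%), in a comparison in which 76.0% of all genes changed. *Ern1* differed most, by 1.74 ± 0.11 on the log2 scale (adjusted p = 1.06e-06), and was the one gene of the 10 beyond 3-fold (14.0% of all genes). *Ppp1r15b* was higher by 0.72 ± 0.05 (adjusted p = 1.98e-06), *Eif2ak3* by 0.72 ± 0.08 (adjusted p = 3.81e-05), *Xbp1* by 0.51 ± 0.10 (adjusted p = 0.00171), *Mbtps1* by 0.50 ± 0.06 (adjusted p = 4.00e-05), *Atf4* by 0.50 ± 0.10 (adjusted p = 0.00191) and *Atf6b* by 0.26 ± 0.07 (adjusted p = 0.00765). *Atf6* gave 0.18 (95% interval -0.00 to 0.36, adjusted p = 0.069), which passed with TPM as deposited (0.29), after quantile normalization (0.35) and without wildtype PC replicate 2 (0.27) or Xbp1-deficient PB replicate 1 (0.18). The call for *Atf6b* was lost without wildtype PC replicate 1 or control PB replicate 2 (adjusted p = 0.0544 and 0.0536). The 2 proteases went opposite ways, as *Mbtps2* was lower in PCs by 0.60 ± 0.09 on the log2 scale (adjusted p = 0.000251), with 13.98 and 12.7 TPM against 18.6 and 18.7 TPM. *Nfe2l1* fell by 1.43 ± 0.10 (adjusted p = 1.60e-06), from 187 and 201 TPM to 80.7 and 75.0 TPM. The fibroblast markers fell with it, 6 of 6 tested, and T cell, neutrophil and erythroid markers all rose, so that the other cells of a culture and of a spleen move with the stage. Both came from spleen, but the PBs were cultured in vitro and the PCs taken after immunization, and stage, culture, stimulus, sort and genotype cannot be told apart in this comparison.

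The lists differed in direction between stages, in a comparison where 38.4% of all genes tested were lower in PCs and 37.6% were higher. Of the ATF4 targets 11 fell and 4 rose (median -0.78), with *Nupr1* at -4.90, *Stc2* at -2.82 and, in the opposite direction, *Ppp1r15a* at 2.26, from 60.4 and 59.8 TPM to 328 and 296 TPM. Among the Xbp1s targets 4 fell and 3 rose, *Dnajb9* by 1.01 and *Wfs1* by 0.78, but 3 fell and 6 rose with TPM as deposited and 1 fell and 8 rose after quantile normalization. Of the ATF6 targets 4 rose, led by *Derl3* (1.95), and 2 fell, led by *Calr* (-0.89), against 8 and 1 after quantile normalization. *Syvn1* (1.21), *Creb3l2* (1.68), *Scap* (1.59), *Nck1* (0.55) and *Nfe2l3* (2.87, at 1.34 and 1.44 TPM in PCs) were higher in PCs, and *Maff* (-2.32) was lower. Of 7 RIDD substrates tested 6 fell and none rose, with a median of -1.02 and the same counts with TPM as deposited and after quantile normalization. *Col6a1* (-7.54), *Sparc* (-7.03) and *Pmp22* (-6.43) fell together with the fibroblast markers, *Tapbp* (-1.02), *Hgsnat* (-0.83) and *Ergic3* (-0.45) fell by less, and *Bloc1s1* (0.08) did not pass. The proteasome subunits fell in 20 cases, with *Psmd2* at -0.80, and rose in 3, with *Psma3* at 0.95, against 11 and 8 after quantile normalization. The median of all genes moved by 0.12 without scaling.

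To test whether the effect of Mist1 differed between the stages, the fold change in PBs was subtracted from that in PCs. Of the 10 genes, *Ppp1r15b* differed, against 6.11% of all genes in either direction and 4.17% in its own, with -0.63 in PCs and -0.29 in PBs and a difference of -0.32 ± 0.07 in the model of all 10 libraries (adjusted p = 0.0374). The call did not hold with TPM as deposited (-0.31) or within the 8 libraries concerned (-0.32), nor in 8 of the 10 fits that left out 1 library (adjusted p = 0.0580 to 0.130, for Mist1-deficient PB replicate 1 and Mist1-deficient PC replicate 1). Among all genes that differed, 68.2% were lower, or 56.3% after quantile normalization. *Ern1* gave a difference of 0.30 (95% interval -0.06 to 0.66) and *Eif2ak3* one of -0.21 (-0.47 to 0.05), neither of which passed. The mutant alleles also differ, since the PBs carried CreER in place of *Bhlha15* and the PCs a deleted floxed allele, and allele and stage cannot be told apart. In addition, the control PBs carried floxed *Xbp1*, which the label of the Mist1-deficient PBs does not name.

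Ratios within a library do not depend on its scaling and show the shifts between arms directly. The ratio of *Atf6b* to *Atf6* was 1.31 and 1.34 in control PBs, 1.27 and 1.26 in Mist1-deficient PBs, 1.38 and 1.42 in wildtype PCs and 1.55 and 1.504 in Mist1-deficient PCs, but 0.355 and 0.276 in Xbp1-deficient PBs, where *Atf6* was the more abundant paralog. The ratio of *Ern1* to *Eif2ak3* was 0.650 and 0.696 in control PBs and 5.60 and 7.10 in Xbp1-deficient PBs. It was above 1 in PCs too, at 1.17 and 1.58 in wildtype and at 2.13 and 2.08 in Mist1-deficient PCs. For each *Ern1* transcript there were 62.7 and 58.2 of *Xbp1* in control PBs, 11.8 and 9.70 in Xbp1-deficient PBs, and 30.04 and 22.04 in wildtype PCs. *Atf4* exceeded *Eif2ak3* 6.63-fold and 7.47-fold in control PBs and 18.7-fold and 18.4-fold in Xbp1-deficient PBs. The same ratio was 7.43 and 9.99 in Mist1-deficient PBs, 5.81 and 6.27 in wildtype PCs and 8.40 and 9.50 in Mist1-deficient PCs. The ratio of *Ppp1r15b* to *Ppp1r15a* was 1.77 and 1.84 in control PBs and 0.905 and 0.943 in Xbp1-deficient PBs. It was 0.594 and 0.643 in wildtype PCs and 0.318 and 0.312 in Mist1-deficient PCs, while the 2 Mist1-deficient PB libraries gave 1.49 and 0.642. The ratio of *Mbtps1* to *Mbtps2* was 3.20 to 3.87 in the 6 PB libraries and 6.36 to 8.83 in the 4 PC libraries, and that of *Nfe2l1* to *Nfe2l2* was 4.98 to 5.56 in PBs and 1.59 to 1.88 in PCs, without overlap in either case. With 2 libraries against 2, an exact permutation test of a ratio cannot give a two-sided p below 0.333, and none was run.

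**Figure D4:**
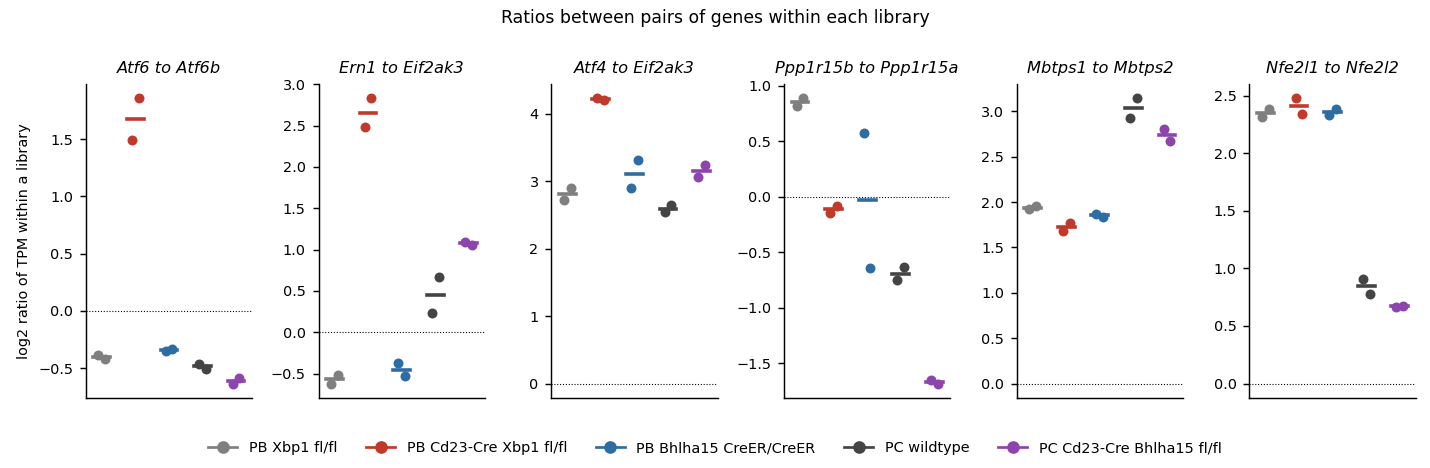
Log2 ratio of TPM for 6 pairs of genes within each library, where points are libraries and bars the means of 2. The dotted line marks equal levels, and the vertical axes differ between panels. Xbp1-deficient PBs stand above all other groups for *Atf6* to *Atf6b* and for *Ern1* to *Eif2ak3*, whereas *Mbtps1* to *Mbtps2* and *Nfe2l1* to *Nfe2l2* separate PBs from PCs.

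The genes that ran most closely with each sensor across the 10 libraries were listed as a description. By Pearson's r of log2 scaled TPM, the closest to *Ern1* were *Pacs2* (0.990), *Trib2* (0.983) and *Jade2* (0.981), and the closest to *Atf6* were *Bfar* (0.970), *Mfng* (0.968) and *Dusp23* (0.966). *Atf6b* ran with *Edem2* (0.998), *Tbl2* (0.998) and *Nfxl1* (0.997), and *Eif2ak3* with *Ficd* (0.995), *Cad* (0.995) and *Mcfd2* (0.994). The 10 points of each r are libraries in 5 groups of 2, and they share the differences between these groups.

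Mist1 peaks were then examined at the 10 loci. The deposited peaks of the experiments numbered 29413 and 30247, and 23806 regions were shared at an overlap of at least 1 bp. The study reports more peaks for each experiment and more in common, and this difference was not examined. A peak of either experiment within 1 kb of an annotated start site was found at 9 of the 10 genes, all except *Mbtps2*, against 73.9% of the 10859 matched genes that were tested in PBs. A shared region within 1 kb of a start site was found at the same 9, against 63.2%. The share of the 10 was thus above that of expressed genes, but the difference was not tested, and 10 genes are too few to read a result from it. The number of shared regions in the gene with 10 kb on either side ranged from 9 at *Ern1* and at *Atf6*, both long genes, to 1 at *Mbtps2*, where its centre lay at -32925 bp from the start site used. That start site (chrX:154006700) lies inside the annotated gene (chrX:153973303-154036647, minus strand). The region (chrX:154039214-154040036) lies beyond the 5′ end of the gene and within 10 kb of it. *Ppp1r15b*, the gene of the 10 that fell most in Mist1-deficient PCs, had 2 shared regions, and *Atf6b*, which did not pass in these PCs, also had 2. The E-box CAGCTG, a motif of the kind that Mist1 binds, was present in the 300-base promoter of *Xbp1* only (15.3% of all promoters), and CATATG was present in none (3.21%). The peaks came from LPS-stimulated PBs and not from the PBs or PCs in which RNA was measured.

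**Figure D5:**
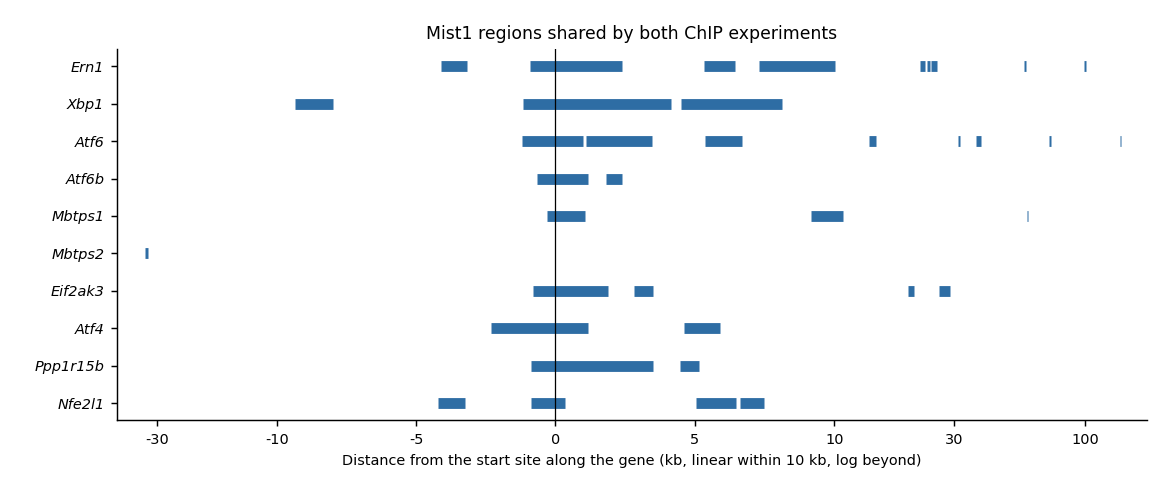
Mist1 regions shared by both Bio-ChIP experiments at the 10 UPR genes, drawn as bars to scale by distance from the start site in the direction of the gene. The axis is linear within 10 kb and logarithmic beyond. A bar covers the start site of every gene except *Mbtps2*, whose 1 region is centred at -32925 bp from a start site inside the annotated gene.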

How the data were processed

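RNA-seq of 10 libraries had been trimmed with cutadapt, aligned to mm9 with STAR 2.4.2 and counted per gene with featureCounts 1.5, and the authors deposited TPM, which sum to 1000000 in each library and were made without immunoglobulin and T cell receptor genes. Read counts and the strand setting of the counting are not given in the sources used here, so that depth is unknown. The names of *Atf5*, *Ddit3*, *Shmt2* and *Syvn1* carry a suffix for overlapping genes in the deposited files, and their values may hold reads of a neighbour, while none of the 10 names carries it. In the annotation used here, however, *Mbtps2* overlaps at an exon with *Yy2*, a protein-coding gene on the same strand. Values of *Mbtps2* may therefore hold reads of *Yy2* too. For Mist1, positions of the deposited MACS peaks were used, and the deposited enrichment columns were not. Submitters' processing notes also name Bowtie 1.0.0, Picard 2.18.27 and SAMtools 1.9.

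TPM were scaled by the median of ratios within each set of libraries, and genes at 1 TPM or more in at least 2 libraries were tested on log2(scaled TPM + 0.1) with limma 3.58.1 in R 4.3.3 (eBayes with trend), with Benjamini-Hochberg adjustment over all genes tested and a threshold of 0.05. The PB comparisons were fitted on 6 libraries, the PC comparison on 4, and the stage comparison and the difference of effects on 10. The scripts were tested on simulated data. The 10 genes and the lists were chosen with earlier results of these data known. *Sel1l*, *Syvn1*, *Dnajb9*, *Dnajc3* and *Ppp1r15a* stand in several lists, so that the counts of different lists are not independent. All 10 genes were reported in every comparison. From each list, the 3 changed genes with the greatest fold change in Xbp1-deficient PBs and the 2 in other comparisons were named, and further list genes were picked with their values in view. The alternatives tried were unscaled (deposited) TPM, quantile normalization, a pseudocount of 1 or of 0.01, no filter or a minimum of 5 TPM, no trend, only the libraries compared, and each library left out. Peaks within 1 kb of a start site were counted, and sequences were read from the mm9 genome with its annotation.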

Additional observations from a re-analysis of the deposited data

Results flagged for a closer look

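The effect of Mist1 loss differed between PCs and PBs, by a limma interaction term over 10 libraries, for 9 of 124 genes tested among the 10 genes and the pathway lists. This was 7.26%, near the 6.11% of all genes, so that the number is no result about these genes. For *Ppp1r15b* the effect in PCs minus that in PBs was -0.32 ± 0.07 on the log2 scale (adjusted p = 0.0374). Among ATF4 targets it was -1.28 for *Gpt2* (adjusted p = 0.0125), -1.13 for *Ddit4* (adjusted p = 0.0167), -0.86 for *Asns* (adjusted p = 0.0167), -0.56 for *Psat1* (adjusted p = 0.0462) and -0.54 for *Shmt2* (adjusted p = 0.0457). For *Scap* it was -0.81 (adjusted p = 0.0151) and for *Derl3* -0.43 (adjusted p = 0.0351). The RIDD substrate *Hgsnat* differed in the opposite direction, by 0.51 (adjusted p = 0.0486). The call for *Gpt2* was kept in all 19 alternatives. With 1 library left out, the other calls were each lost in at least 3 fits, with adjusted p-values up to 0.157 for *Psat1*, 0.143 for *Derl3*, 0.130 for *Ppp1r15b*, 0.0683 for *Asns* and 0.0612 for *Scap* without Mist1-deficient PC replicate 1, 0.148 for *Hgsnat* and 0.0671 for *Ddit4* without Mist1-deficient PC replicate 2, and 0.142 for *Shmt2* without wildtype PC replicate 1. The mutant alleles differ between the stages, and allele and stage cannot be told apart.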

How the results depend on the processing

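Over the 10 genes and 6 comparisons, 950 alternative values were computed, of which 863 kept direction and side of the threshold, 44 lost the call, 14 gained one and 29 turned sign without a call. In Xbp1-deficient PBs against control PBs, the higher genes numbered 1 instead of 2 without the filter or without the trend. Against Mist1-deficient PBs, they numbered 4 with TPM as deposited and 1 without the trend. In Mist1-deficient PCs, the lower genes numbered 1 instead of 2 without the filter or the trend, and the higher genes 0 instead of 1 with TPM as deposited, quantile normalization, no filter or no trend. The difference between stages in the Mist1 effect had 0 instead of 1 lower genes with TPM as deposited, no filter, no trend or only the libraries compared. The cause was not tested.

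With 1 library left out, the *Xbp1* comparison in PBs had 4 to 5 lower and 1 to 2 higher genes, the *Bhlha15* comparison in PBs 0 to 0, the comparison of both mutants 4 to 6 and 1 to 2, the PC comparison 1 to 2 and 0 to 4, the stage comparison 2 to 2 and 6 to 8, and the difference of effects 0 to 1 and 0 to 0.

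Sign changes were found in genes that did not pass. In Xbp1-deficient PBs, *Mbtps1* was 0.184 with TPM as deposited, 0.0897 after quantile normalization and -0.0677 to 0.00946 with 1 library left out, and *Atf4* was 0.0358 and 0.0755 under the first 2. In Mist1-deficient PBs, leaving out 1 library gave -0.105 to 0.0984 for *Ern1*, -0.104 to 0.0397 for *Xbp1*, -0.0674 to 0.0698 for *Atf6*, -0.0503 to 0.0278 for *Mbtps2*, -0.0180 to 0.364 for *Atf4* and -0.209 to 0.0683 for *Nfe2l1*. There *Atf6* was also -0.0418 as deposited and -0.0576 after quantile normalization, and *Mbtps2* 0.0130 after the latter. In PCs, quantile normalization gave -0.0292 for *Xbp1* and 0.00574 for *Mbtps1*, and leaving out 1 library gave -0.152 to 0.0398 for *Atf6*, -0.00727 to 0.147 for *Atf6b* and -0.0201 to 0.000538 for *Mbtps1*. In the difference of effects, *Atf6* was 0.000983 after quantile normalization and -0.131 to 0.0550 with 1 library left out, and *Atf4* -0.104 to 0.232.

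No paired analysis was possible because the labels give no replicate numbers that groups share. With 2 libraries a group, no counts and no protein values, small differences and ATF4 protein lie beyond these data.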
